A study of Mus musculus with 2 samples.

Results

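The 39 Hox genes of the mouse lie in 4 clusters, Hoxa, Hoxb, Hoxc and Hoxd, and all 39 were found among the 22028 protein-coding genes, and the 55536 genes in all, that were measured in the adrenal gland. They were chosen by symbol alone, a cluster letter followed by the number of the paralog group. Total RNA after ribosomal RNA reduction was sequenced from adrenal glands of male B6CASTF1/J mice, F1 hybrids of C57BL/6J and CAST, aged 2 months. The series holds 1 group of 2 libraries, called replicate 1 and replicate 2, each made from 300 ng of RNA with ERCC spike-in RNAs and a directional kit. The sample descriptions give the libraries different animal numbers, whereas the library descriptions and the donor field are the same for both, so that these are separate animals rests on the sample descriptions. There is no treated, mutant or younger group, so the results are levels, and the setting of replicate 1 against replicate 2 compares 1 library with 1 library.

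Hox genes encode homeodomain transcription factors that give cells along the head-to-tail axis of the embryo their position. Within a cluster the genes stand in a row in the order of their paralog groups, low-numbered genes are first expressed further towards the head and high-numbered genes towards the tail, and many adult cells keep a pattern of expressed and silent Hox genes that reflects where their ancestors lay. In the mouse, a HOX protein together with homeodomain partners, among them PREP1 (gene Pknox1), binds the fetal adrenal enhancer of Nr5a1, the gene of the steroidogenic master regulator.

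Replicate 1 held 36182740 expected counts in genes and replicate 2 held 34149995, of which Hox genes took 14504 and 14736, or 0.0401% and 0.0432%. The tissue label was checked against its markers: all 6 markers of the adrenal cortex and all 6 of the chromaffin cells of the medulla reached 1 TPM (transcript abundance per length, scaled to a total of 1000000 in each library) in both libraries. Star, which carries cholesterol into mitochondria, stood at 5294 TPM in replicate 1 and 5939 TPM in replicate 2. Fat and blood were also present, with all 5 white fat, all 3 brown fat and all 3 red cell markers at 1 TPM or more. Whole glands were sequenced, so each Hox level is a sum over these cell types, and fewer cells of a type and less RNA per cell cannot be told apart.

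The sequences below show a short stretch of the homeobox in some of the Hox genes. A pattern of 21 bases covers part of the homeobox that encodes the DNA-recognition helix and leaves some bases free. It was found in transcripts of 31 of the 39 genes, and not in those of Hoxa5 and Hoxd8, among others. The 5 stretches given, read 5′ to 3′ from the GENCODE M21 transcripts, are those of Hoxb9 and Hoxc9, which are paralogs with very different levels, and of Hoxc8, Hoxa7 and Hoxd10, which lie at the boundaries described further on. Capitals mark bases unlike those of Hoxb9.

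Hoxb9: aaaatctggtttcagaaccgg
Hoxc9: aaaatctggtttcagaaccgg
Hoxc8: aaGatTtggttCcagaaTcgA
Hoxa7: aaGatctggttCcagaaTcgg
Hoxd10: aaGatTtggtttcaAaaccgC

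Hoxc9 carried the same 21 bases as Hoxb9, and Hoxc8 differed from it at 5 bases. Bases fixed by the pattern are alike by the search itself, so only its free positions could differ. Whole transcripts were compared without a pattern. Of the 39 genes, 31 had no run of 100 bases in common, on the same strand, with any transcript of another gene among 141767 transcripts, and these include Hoxb9, Hoxc9, Hoxa9, Hoxd9, Hoxa7 and Hoxc8. The other 8 shared runs mostly with an overlapping readthrough gene, and for 4 of them a partner was another Hox gene (Hoxc5 with Hoxc10, Hoxd3 with Hoxd4). Their separate values are therefore less certain.

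A Hox gene is called expressed below at 1 TPM or more in both libraries, silent under 0.1 TPM in both, and low between. By that measure 20 of the 39 genes were expressed, 5 were low and 14 were silent, beside 54.2% of all protein-coding genes expressed and 30.6% silent. The expressed share was near that of all protein-coding genes. The expressed genes formed 1 block in each cluster, counted over the genes the cluster holds: groups 3 to 7 in Hoxa, 2 to 9 in Hoxb, 4 to 8 in Hoxc, and 4, 8 and 9 in Hoxd. The low genes stood on the outer side of a block, and any genes further out were silent.

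**Figure D1:**
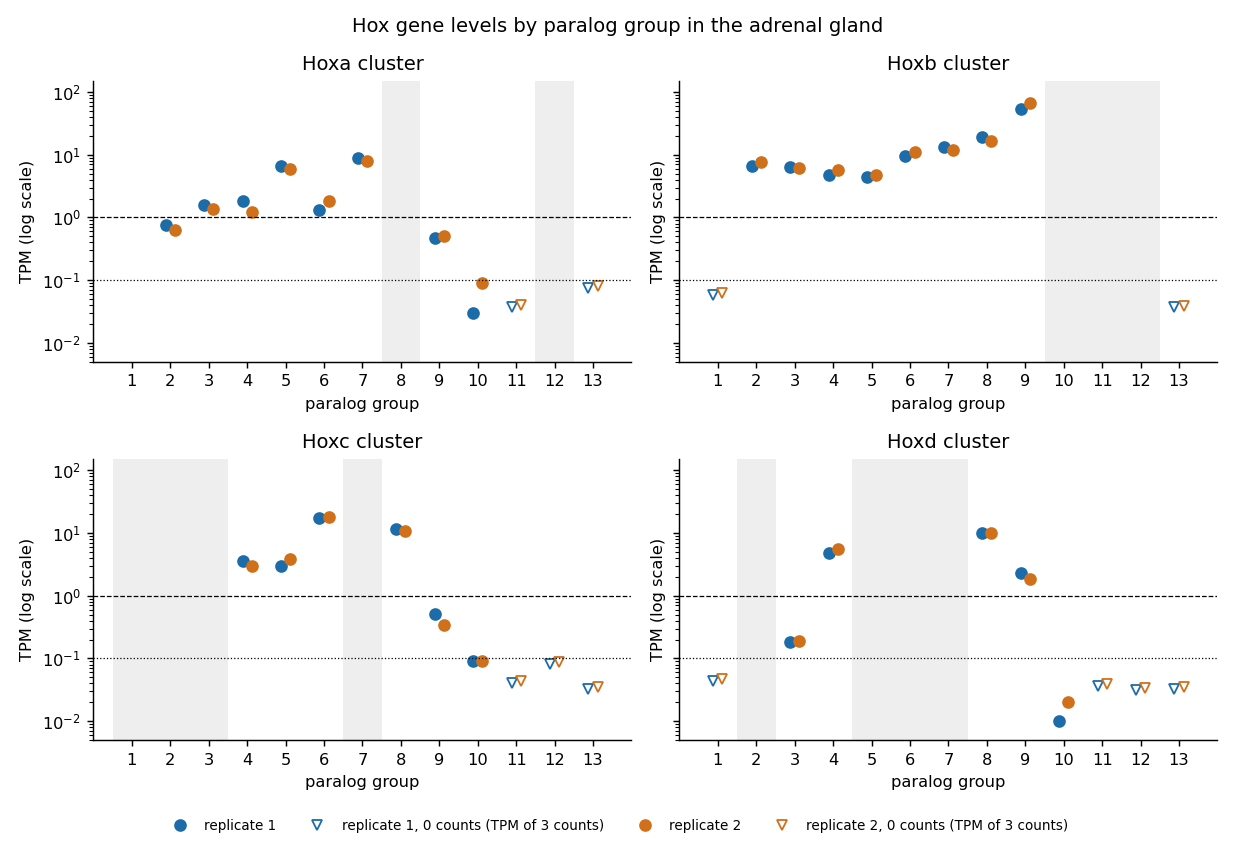
TPM on a log scale (y axis) against paralog group (x axis) for the reported genes of each cluster, replicate 1 in blue and replicate 2 in orange; filled points are measured values, open triangles mark genes with 0 counts at the TPM that 3 counts would give, grey bands are groups a cluster lacks, and the dashed and dotted lines are 1 and 0.1 TPM. In all 4 panels the points fall below 0.1 TPM from group 10 on, and Hoxb9 stands highest at 53.1 and 67.1 TPM.

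Summed over all 39 genes, and over coding and noncoding transcripts of each, Hox RNA held 193 TPM in replicate 1 and 204 TPM in replicate 2. The Hoxb cluster held 62.6 ± 2.20% of it (SD, n = 2), Hoxc 18.2 ± 0.839%, Hoxa 10.4 ± 1.13% and Hoxd 8.82 ± 0.235%. By paralog group, the level was highest in group 9 (56.3 and 69.8 TPM), then in group 8 (41.1 and 37.7 TPM), group 6 (28.3 and 30.7 TPM) and group 7 (22.2 and 19.6 TPM). Group 10 held 0.13 and 0.20 TPM, and groups 11 to 13 held no expected count in either library. In groups 4 to 8 all the genes that the mouse has were expressed, in group 9 only Hoxb9 and Hoxd9, and beyond group 9 none.

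The Hoxb cluster lies on chromosome 11 from 96194316 to 96368256 (GRCm38, the coordinates used throughout) and spans 173.9 kb. It held 8 expressed genes, no low gene and 2 silent ones, with a total of 118 TPM in replicate 1 and 131 TPM in replicate 2. Hoxb9 (ENSMUSG00000020875.9), known in mice for patterning of the thoracic skeleton, had 5004 counts and 53.1 TPM in replicate 1, and 5938 counts and 67.1 TPM in replicate 2. This was the highest Hox level in both libraries, and the ranges of Hoxb9 and of the next gene, Hoxb8, did not overlap. Among 11944 expressed protein-coding genes Hoxb9 ranked 862nd by mean TPM, above 92.8% of them. The expressed Hox genes had a median of 6.27 TPM and a range of 1.47 to 60.1 TPM in their means, beside a median of 9.76 TPM for all expressed protein-coding genes.

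Hoxb8, whose loss in mice gives excessive grooming, stood at 19.5 TPM in replicate 1 and 16.8 TPM in replicate 2. Hoxb7 stood at 13.4 and 11.7 TPM and Hoxb6 at 9.55 and 10.9 TPM. From Hoxb9 towards Hoxb5 the level thus declined gene by gene along the chromosome, with no overlap between neighbours in either library's range. Hoxb5, a regulator of vagal neural crest, had 4.41 and 4.78 TPM, and Hoxb4, known from blood stem cell expansion, had 4.83 and 5.75 TPM. Hoxb3 had 6.35 and 6.25 TPM and Hoxb2, a gene of hindbrain segments, had 6.55 and 7.63 TPM. The level thus turned up again from Hoxb5 towards Hoxb2. Of the 100-base runs of Hoxb3, 49.7% are also antisense to Hoxb3os, which had 0.52 and 0.46 TPM, and without a stated use of strand the reads cannot be told apart.

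No low gene stood at either end of the Hoxb block. Hoxb13, a gene of the tail bud and prostate, had 0 counts in both libraries and lies 74.0 kb beyond Hoxb9. With 3 counts taken as the floor per library, the TPM of Hoxb9 was at least 1448-fold higher than that of Hoxb13 in replicate 1. It was at least 1705-fold higher in replicate 2, and the 95% intervals of the ratio of counts per length start at 1177 and 1386. At the other end Hoxb1, a gene of the hindbrain, had 0 expected counts in both libraries (9 and 13 estimated read-based counts), and by the expected counts Hoxb2 was at least 113-fold higher in replicate 1 and at least 123-fold higher in replicate 2, with intervals that start at 91.7 and 99.5. By read-based TPM, in which Hoxb1 was above the floor, Hoxb2 was 64.5-fold higher in replicate 1 and 48.6-fold higher in replicate 2. Floors and intervals here cover counting error only, as the reads carry no molecular identifiers and can be copies of one molecule.

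The Hoxc cluster lies on chromosome 15 from 102921103 to 103036852 and spans 115.8 kb. It held 4 expressed genes and a total of 36.2 and 36.0 TPM, with Hoxc6 (ENSMUSG00000001661.5), a gene of the thoracic axis, in the lead at 17.5 TPM in replicate 1 and 18.0 TPM in replicate 2. Hoxc8, which acts in the brachial and thoracic cord, stood at 11.6 and 10.7 TPM. Hoxc5 had 2.99 and 3.85 TPM and Hoxc4 had 3.59 and 2.98 TPM, so these neighbours in level overlapped. Hoxc9, known for setting thoracic motor neuron identity, was low with 45 counts and 0.51 TPM in replicate 1, and 28 counts and 0.34 TPM in replicate 2. By counts per length, Hoxc8 was 22.8-fold higher than Hoxc9 in replicate 1 (95% interval 16.9 to 31.5). In replicate 2 it was 31.6-fold higher (21.6 to 47.8), and the gap between the genes was 5.51 kb. Hoxc10 had 6 counts in each library, and Hoxc11, Hoxc12 and Hoxc13 had none.

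The Hoxa cluster lies on chromosome 6 from 52155590 to 52260880 and spans 105.3 kb. It held 5 expressed, 3 low and 3 silent genes, with a total of 21.6 TPM in replicate 1 and 19.6 TPM in replicate 2. Hoxa7 (ENSMUSG00000038236.8) led at 8.76 and 7.91 TPM, followed by Hoxa5, needed in mice for lung and airway development, at 6.60 and 5.88 TPM. Hoxa6 (1.30 and 1.85 TPM), Hoxa4 (1.82 and 1.24 TPM) and Hoxa3 (1.57 and 1.37 TPM), a gene of the thymus and parathyroid, lay close to the threshold, and their ranges overlapped. The block thus held 2 genes at a clear level and 3 just over 1 TPM.

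The ends of the Hoxa block were graded. Hoxa9, known from blood progenitors and leukaemia, was low with 34 counts and 0.47 TPM in replicate 1, and 21 counts and 0.51 TPM in replicate 2. Hoxa7 was 18.6-fold higher than Hoxa9 in replicate 1 (13.2 to 27.1) and 15.6-fold higher in replicate 2 (10.1 to 25.5) by counts per length, although the annotated genes lie 1.25 kb apart. Hoxa10 had 2 and 3 counts, which puts Hoxa7 274-fold above it in replicate 1 (75.6 to 2270) and 90.2-fold in replicate 2 (30.7 to 439). These counts fell on noncoding transcripts, Hoxa10-203 in replicate 1 and Hoxa10-204 in replicate 2, so the gene length used differed, 1710 and 1045 bases. The length used for Hoxa9 also differed, 1955 and 1246 bases. With protein-coding transcripts alone Hoxa9 had 0.30 and 0.25 TPM. Hoxa11, a gene of limb and kidney, and Hoxa13, a gene of the autopod and hindgut, had 0 expected counts, Hoxa13 with 4 estimated read-based counts in replicate 1. Towards the other end, Hoxa2, the selector gene of the second branchial arch, had 0.76 and 0.64 TPM. By TPM Hoxa3 was 2.07-fold higher in replicate 1 (interval of the ratio of counts per length 1.5 to 2.95) and 2.14-fold higher in replicate 2 (1.48 to 3.17).

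The Hoxd cluster lies on chromosome 2 from 74668310 to 74765142 and spans 96.8 kb. It held 3 expressed genes and a total of 17.3 TPM in replicate 1 and 17.7 TPM in replicate 2. Hoxd8 (ENSMUSG00000027102.4) led at 10.03 and 10.1 TPM, Hoxd4 had 4.83 and 5.47 TPM, and Hoxd9 had 2.27 and 1.87 TPM. The cluster has no gene of groups 5 to 7, so these 3 are neighbours, and their ranges did not overlap. Hoxd3 was low at 0.18 and 0.19 TPM, and Hoxd1 had 0 counts, so Hoxd4 was at least 110-fold above Hoxd1 in replicate 1 and at least 116-fold in replicate 2 (intervals from 89.1 and 94.2). Hoxd3 and Hoxd4 overlap on the same strand and share 100-base runs with each other and with the readthrough gene Gm28230, which had 0.38 and 0.69 TPM; 57.8% of the runs of Hoxd3 and 41.1% of those of Hoxd4 were shared, so the split between them is uncertain.

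The step from Hoxd9 to Hoxd10 was the closest pair of an expressed and a silent gene with no low gene between them. Hoxd9 had 180 counts in replicate 1 and 138 in replicate 2, and Hoxd10, a gene of the lumbar cord, had 1 count in each, with 2.62 kb between the annotated genes. By counts per length Hoxd9 was 152-fold higher in replicate 1 (26.9 to 6026) and 116-fold higher in replicate 2 (20.5 to 4627). Hoxd11, Hoxd12 and Hoxd13 had 0 expected counts, Hoxd11 with 3.11 and 3.15 estimated read-based counts. The promoters of this pair are shown because they stand on either side of the boundary. Each is 300 bases, 250 before to 50 after the RefSeq start, on the plus strand of GRCm38.p6, at chr2:74697513-74697812 for Hoxd9 and chr2:74691641-74691940 for Hoxd10, with each CG dinucleotide in capitals.

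Hoxd9: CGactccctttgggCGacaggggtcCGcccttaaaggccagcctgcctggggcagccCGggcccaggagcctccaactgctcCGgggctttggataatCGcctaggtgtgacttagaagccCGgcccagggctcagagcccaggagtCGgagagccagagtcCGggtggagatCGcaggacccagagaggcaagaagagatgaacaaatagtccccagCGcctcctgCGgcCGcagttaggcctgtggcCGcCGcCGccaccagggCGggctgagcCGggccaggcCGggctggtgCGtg
Hoxd10: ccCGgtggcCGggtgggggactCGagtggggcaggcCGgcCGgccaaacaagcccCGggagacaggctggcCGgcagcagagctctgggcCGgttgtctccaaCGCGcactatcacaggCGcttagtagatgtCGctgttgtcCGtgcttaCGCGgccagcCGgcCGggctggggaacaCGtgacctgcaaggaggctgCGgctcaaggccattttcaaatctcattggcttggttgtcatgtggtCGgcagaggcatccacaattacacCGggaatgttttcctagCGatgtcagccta

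The expressed gene's window held 20 CG dinucleotides and the silent gene's 22, so the pair did not differ in this respect by more than 2. RefSeq promoters were matched for 22 of the 39 Hox genes, 24 windows in all. The 10 windows of expressed genes had a median of 13.5 CG, the 11 of silent genes a median of 21, and all 32851 promoters of the table a median of 7. A window need not be the promoter in use. For 16 windows the gene had a leading transcript, the one with the most TPM, and 9 of these RefSeq starts lay within 50 bases of its start. Among expressed genes, the starts were 10049 bases apart for Hoxd4, 1068 for Hoxa7 and 290 for Hoxd8. Whether CG number differs by state at the promoters in use was not tested. The letters TGATTNAT, a site type bound by PBX-HOX pairs, were searched on both strands and found in 2 of the 24 windows, those of Hoxa2 and Hoxd11, beside 3.22% of all windows. These are matches of letters only.

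**Figure D2:**
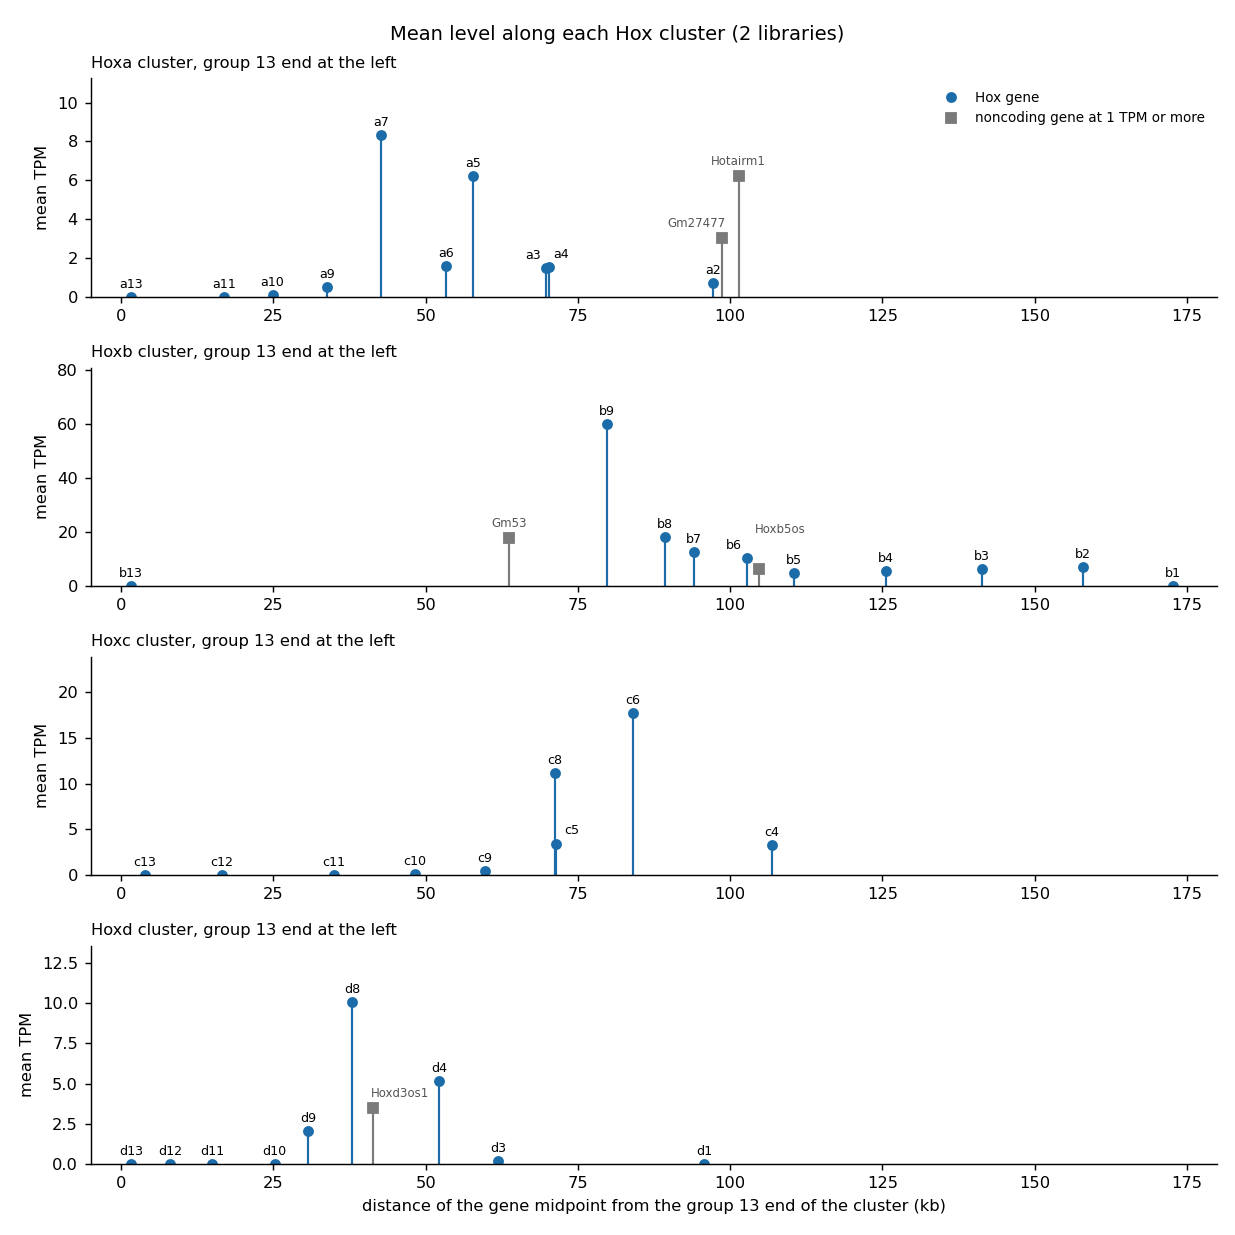
Mean TPM over both libraries (y axis, a separate linear scale per cluster) against the distance of each gene's midpoint from the group 13 end of its cluster in kb (x axis), with the reported Hox genes as blue points and noncoding genes at 1 TPM or more as grey squares; the annotated span of Hoxc5 reaches into Hoxc10, which puts its midpoint beside Hoxc8. In each cluster the group 13 side is at the baseline, and the noncoding gene Gm53 stands at 17.7 TPM in the gap between Hoxb13 and Hoxb9.

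The spans of the clusters also hold 43 genes not annotated as protein-coding, of which 5 reached 1 TPM in both libraries, beside 3.15% of all such genes. Of the 19 over 300 bases, 4 reached it, beside 3.37%. Gm53, a long intergenic RNA in the gap between Hoxb13 and Hoxb9 and on the strand of the Hoxb genes, was the highest at 14.8 TPM in replicate 1 and 20.6 TPM in replicate 2, with 732 and 947 counts. It was thus transcribed at a level like that of Hoxb8, while Hoxb13 at the far side of the gap had no count. Hoxb5os, antisense to Hoxb5 and Hoxb6, had 6.32 and 6.28 TPM. Hotairm1, an antisense RNA at the group 1 end of Hoxa known from myeloid cells, had 5.99 and 6.48 TPM, and Hoxd3os1 had 3.56 and 3.40 TPM. Gm27477, 143 bases long, had 3.51 and 2.51 TPM from 6 and 4 counts, and 0 read-based counts. The long noncoding RNAs of silent regions, Hottip beyond Hoxa13 and Hotair between Hoxc11 and Hoxc12, had 0 counts, and Halr1 had 2 and 0. The 7 miRNA genes inside the spans had 0 counts; a library of this kind need not hold mature miRNAs.

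The nearest protein-coding genes outside the clusters ranged from 0 counts to 39.4 TPM. Beyond the group 13 ends, Evx1 beside Hoxa had 0.04 and 0.06 TPM, Evx2 beside Hoxd and Ttll6 beside Hoxb had 0 counts, and Calcoco1 beside Hoxc had 39.3 and 39.4 TPM. Beyond the group 1 ends, Skap2 beside Hoxa had 16.6 and 17.6 TPM, Mtx2 beside Hoxd 26.1 and 20.3 TPM, and Skap1 beside Hoxb 1.59 and 1.59 TPM. Smug1, beyond Hoxc4, had 4.84 and 4.58 TPM.

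Which transcripts carried a gene's level was asked next, since transcripts of neighbouring Hox genes overlap. Of the 20 expressed genes 15 had more than 1 annotated transcript, and for these the median share of gene TPM from the leading transcript was 77.7% (range 47.7 to 99.6%). Alignment-based and read-based values named the same leading transcript for 14 of the 15. Hoxb9-201 held 84.4% of Hoxb9 in replicate 1 and 90.3% in replicate 2, and Hoxb7-201 held 99.3 and 100%. The exception in the leading transcript was Hoxd4, where the noncoding Hoxd4-203, which starts beside the first base of Hoxd3, held 43.9 and 51.6%, and the protein-coding Hoxd4-201 held 30.6 and 31.8%. Read-based values gave Hoxd4-201 the lead, with a mean of 56.4%.

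Transcripts with no full coding frame were part of several levels. The retained intron transcript Hoxc8-202 held 26.9% of Hoxc8 in replicate 1 and 31.2% in replicate 2. Hoxb5-202, also a retained intron, held 17.2 and 25.3%. Both transcripts have 1 annotated exon, and reads of unspliced RNA were not told apart from them. The noncoding Hoxc6-202 held 24.3 and 24.2%, and Hoxc5-202, which begins inside Hoxc10, held 12.4 and 32.2%. With protein-coding transcripts alone, Hoxc6 still led its cluster at 11.8 and 11.6 TPM and Hoxc8 had 8.49 and 7.39 TPM. Counted the same way, Hoxd4 had 2.71 and 2.65 TPM, and Hoxa3 had 1.24 and 0.99 TPM, which leaves 19 expressed genes and moves the lower edge of the Hoxa block to group 4. The split of Hoxb6 between Hoxb6-201 and Hoxb6-202 depended on the quantification, with a mean of 51.9% for Hoxb6-202 in the alignment-based table and 96.6% in the read-based table.

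**Figure D3:**
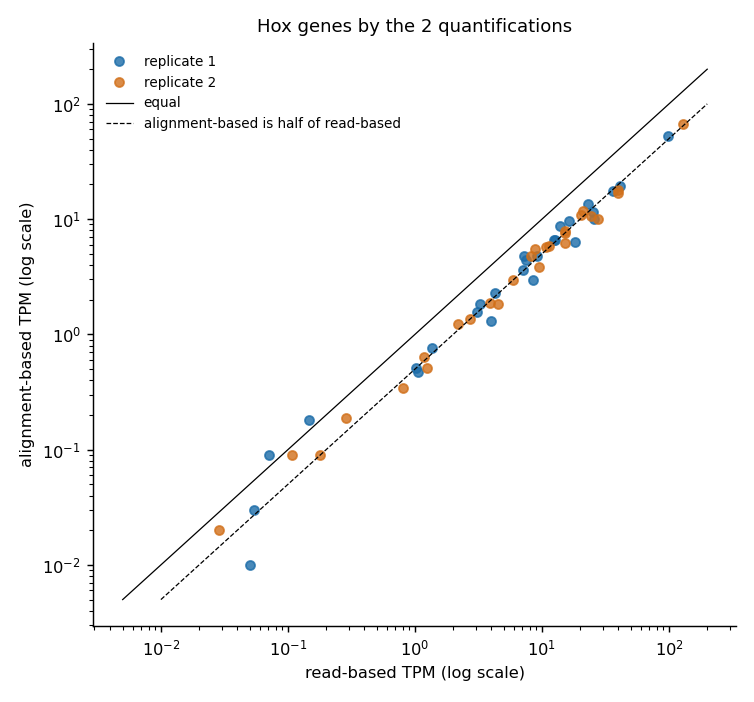
Alignment-based TPM (y axis) against read-based TPM (x axis), both on log scales, for reported Hox genes with a mean of at least 1 count, replicate 1 in blue and replicate 2 in orange; the solid line marks equal values and the dashed line alignment-based values at 0.5 of read-based ones. The genes of higher level, from Hoxa9 at 0.47 and 0.51 TPM to Hoxb9 at 53.1 and 67.1 TPM, scatter about the dashed line. In replicate 1 their log2 ratios of alignment-based over read-based TPM ran from -1.61 (Hoxa6) to -0.59 (Hoxd4).

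The read-based tables gave Hox genes a similar order at a higher scale, with some changes. Hoxd8 (25.5 and 27.7 read-based TPM) passed Hoxc8 (25.1 and 24.2) and Hoxb7 (22.8 and 21.1). Hoxb3 (18.3 and 15.1) passed Hoxb2 (12.4 and 15.3) in replicate 1, so the rise from Hoxb5 ended at Hoxb3 there. Hoxa6 (3.98 and 4.51) no longer overlapped Hoxa4 (3.26 and 2.19) or Hoxa3 (3.07 and 2.70). For Hox genes, alignment-based over read-based TPM had a median log2 ratio of -0.93 (replicate 1) and -0.99 (replicate 2), beside -0.85 and -0.93 for protein-coding genes. The threshold of 1 TPM therefore admits more genes in the read-based table, 22 of 39 Hox genes beside 58.3% of all protein-coding genes. The genes added were Hoxa2 at 1.37 and 1.19 read-based TPM and Hoxa9 at 1.05 and 1.25 read-based TPM. Hoxc9, at 1.02 and 0.80 read-based TPM, was not. Of the 14 genes silent by the alignment-based table, 10 were silent by the read-based one too, and Hoxa10, Hoxa13, Hoxb1 and Hoxc10 were low there.

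Hox levels were close in the libraries. Over the 28 Hox genes with counts in both, log2 TPM of replicate 1 and replicate 2 had a Pearson correlation of 0.985 across genes, given as a description. For the 23 genes that averaged at least 20 counts, the log2 ratio of replicate 1 over replicate 2, from counts scaled by TMM library sizes, lay between -0.42 and 0.67, with a median of 0.14 beside 0.01 for all 15667 such genes. No Hox gene was over 2-fold apart, beside 1.57% of all genes. The 95% interval lay above 0 for 8 of the 23, beside 17.8% of all genes, and below 0 for 1, beside 16.4%.

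The gene below 0 was Hoxb9, with 5004 counts in replicate 1 and 5938 in replicate 2 and a log2 ratio of -0.25 (-0.31 to -0.20). Of those above 0, Hoxa4 had 106 and 67 counts and the largest log2 ratio, 0.65 (0.20 to 1.12). The others, Hoxa5, Hoxa7, Hoxb7, Hoxb8, Hoxc4, Hoxc8 and Hoxd9, had log2 ratios between 0.12 and 0.37. With total counts as the scale the numbers were 3 above and 3 below 0, and with TPM 4 above and 5 below, so the excess of genes higher in replicate 1 was not kept under these scales. It was kept with DESeq2 size factors, 8 above and 1 below, and with read-based counts, 10 above and 2 below. By cluster the median log2 ratio was 0.30 in Hoxa, -0.09 in Hoxb, 0.20 in Hoxc and 0.05 in Hoxd.

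Markers of several cell types differed between the libraries beside these ratios. The 3 brown fat markers summed to 1373 TPM in replicate 1 and 691 TPM in replicate 2, with a median log2 ratio of 1.10 and 3 of 3 intervals above 0. The 5 white fat markers summed to 3226 and 2548 TPM (median 0.52, 5 of 5 above 0), and the 6 markers of capsule and stroma to 216 and 186 TPM (median 0.31, 5 of 6 above 0). All 6 chromaffin markers had ratios above 0 (sums of 2114 and 1859 TPM, median 0.27), while the 6 cortex markers summed to 10576 and 12063 TPM (median -0.11, 4 of 6 below 0). Red cell markers summed to 1373 and 828 TPM, smooth muscle to 108 and 90.7 TPM, endothelium to 138 and 153 TPM and macrophages to 62.3 and 63.7 TPM. The neuron list summed to 19.2 and 19.3 TPM, most of it from Snap25 (15.4 and 14.7 TPM), with Rbfox3 at 2.26 and 2.79 TPM and Elavl4 at 1.52 and 1.83 TPM. Kidney markers, from the neighbouring organ, summed to 2.67 and 5.76 TPM, liver markers to 2.21 and 7.63 TPM, Schwann cell markers to 2.28 and 2.40 TPM and lymphocyte markers to 0.72 and 0.66 TPM. Of the markers on these lists Umod, a kidney gene, was at 0 in replicate 1 and had 2 counts in replicate 2, and no other was at 0 in either library. The part of these cell types in the Hox levels and ratios was not tested.

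**Figure D4:**
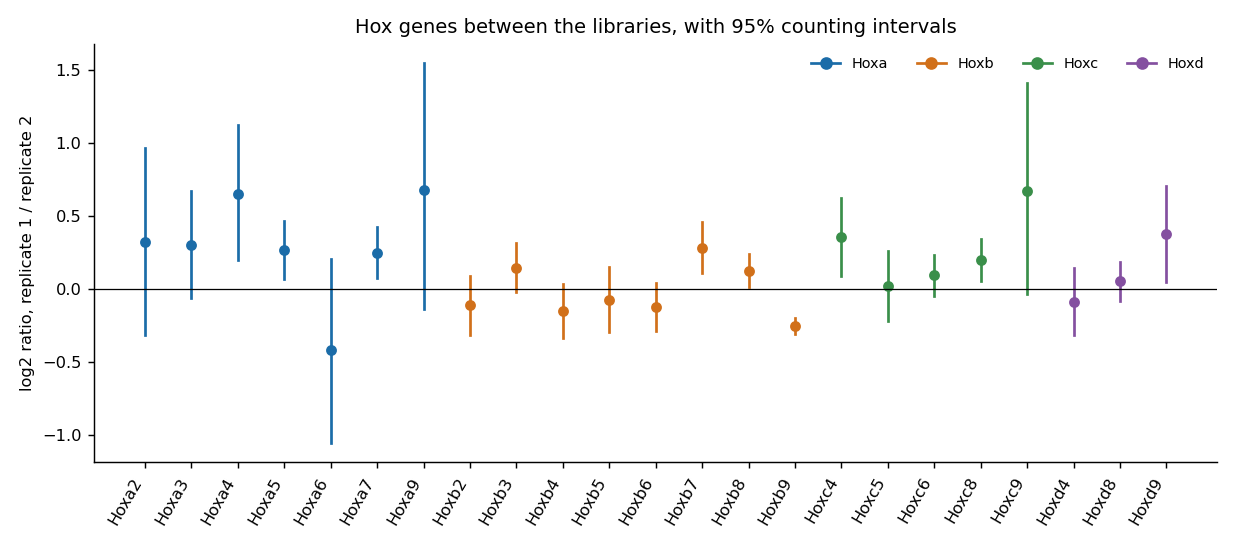
Log2 ratio of replicate 1 over replicate 2 (y axis) for the 23 Hox genes averaging at least 20 counts (x axis), coloured by cluster; points are ratios at TMM-scaled library sizes and bars are 95% counting intervals. Hoxb9, at -0.25, is the only gene with its whole interval below 0, and 8 genes have it above 0.

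HOX proteins bind DNA with TALE homeodomain partners of the PBX, MEIS and PREP families. Of the 11 TALE genes listed, which also include Tgif1 and Tgif2, 9 were expressed, beside 54.2% of all protein-coding genes. Meis2 stood at 61.0 TPM in replicate 1 and 61.5 TPM in replicate 2, within the range of Hoxb9. Pbx3 (24.3 and 25.2 TPM), Meis1 (13.3 and 14.8 TPM), Pbx2 (12.4 and 13.4 TPM) and Tgif1 (11.4 and 11.1 TPM) were above the median of the expressed Hox genes. Pknox1 had 5.95 and 5.36 TPM, Meis3 had 3.99 and 4.04 TPM and Tgif2 had 1.23 and 1.08 TPM. Pknox2 (1.02 and 0.81 TPM) and Pbx4 (0.11 and 0.37 TPM) were the 2 below the threshold. RNA of at least 1 partner was thus present from each of the PBX, MEIS and PREP families.

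Relatives of the Hox genes outside the clusters were almost without counts. Of 9 ParaHox, Evx and Mnx1 genes, none was expressed, beside 54.2% of all protein-coding genes. All 9 were under 0.1 TPM in both libraries, beside 30.6%, and 8 had 0 expected counts, Evx1 being the exception. Among 17 other transcription factor genes that mark position or organ fields, 4 were expressed, beside 54.2% of all protein-coding genes. They include the odd-skipped zinc-finger genes Osr2 and Osr1 and the homeobox gene Irx3. Osr2 stood at 11.8 and 11.9 TPM, Irx3 at 4.23 and 4.00 TPM and Osr1 at 1.40 and 1.59 TPM. Otx1, Otx2, Emx1 and Pitx1, genes of the forebrain or of the hindlimb, had 0 expected counts in both libraries. By read-based TPM, Otx2, Emx1 and Pitx1 were also at 0 in both libraries, and Otx1 had 0 in replicate 1 and 0.028 in replicate 2.

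The silent and active states of Hox clusters are kept by Polycomb and Trithorax proteins, and all 18 genes of the Polycomb list and all 7 of the Trithorax list were expressed, beside 54.2% of all protein-coding genes. The Polycomb list includes Kdm6a and Kdm6b, which remove the Polycomb mark. Ezh1 (10.1 and 11.0 TPM) stood above Ezh2 (5.29 and 4.30 TPM), the paired methyltransferases, with Eed at 14.3 and 12.7 TPM and Suz12 at 10.9 and 13.6 TPM. Phc2 had 21.01 and 22.66 TPM, and Cbx2 was the lowest of the list at 1.47 and 2.07 TPM. Of the 18, the interval was below 0 for 5 and above 0 for 1 (Cbx7), beside 16.4% and 17.8% of all genes. Kmt2a, the MLL methyltransferase, had 5.78 and 8.98 TPM, and Dpy30 led the Trithorax list at 22.8 and 24.8 TPM. Ctcf had 15.4 and 18.7 TPM and Gmnn 3.50 and 4.79 TPM.

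**Figure D5:**
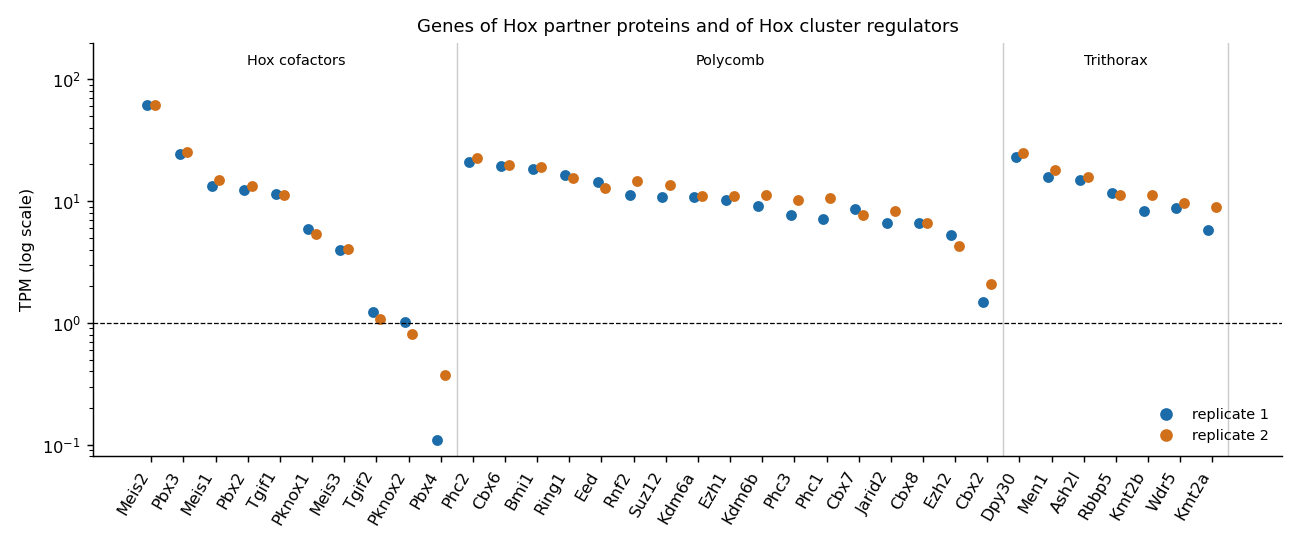
TPM on a log scale (y axis) of the reported genes of the TALE, Polycomb and Trithorax lists (x axis, ordered by mean TPM in each list). Replicate 1 is in blue and replicate 2 in orange, with a dashed line at 1 TPM. All plotted genes of the Polycomb and Trithorax lists lie above the line, and Pknox2 and Pbx4 are the TALE genes that do not in both libraries.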

How the data were processed

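For each library the authors deposited an alignment-based gene table and transcript table holding TPM and expected counts (reads shared among transcripts, not whole numbers). They also deposited a read-based transcript table holding TPM and estimated counts. The units are named per the file headers. The labels give the build as mm10, and gene and transcript identifiers matched GENCODE M21, for 55536 of 55536 genes. Aligner and quantifier names, and whether counting used strand, are not given in the sources used here, so antisense overlaps (9 Hox genes) stay uncertain. Whether CAST alleles were counted as fully as those of the other strain was not tested.

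Levels are gene TPM. ERCC and transfer RNA rows, 0.904% and 0.885% of counts, were left out. Expected counts were rounded and 0.5 added for ratios, which used TMM library sizes (edgeR 4.0.16, R 4.3.3); DESeq2 1.42.0 size factors, total counts and TPM were alternatives. Intervals are exact Clopper-Pearson 95% intervals (scipy 1.17.1) and cover counting error only. For replicate 1 over replicate 2 they are of the share of counts in replicate 1. For a pair of genes within 1 library they are of the share of 1 gene in the counts of the pair, scaled by length. The ratio needed a mean of 20 counts, and the floor was 3 counts. There is 1 group, so no test and no p-value is given. The ratio step was run on simulated counts that held counting error only. That checks the calculation and cannot measure variation between libraries. Read-based values were summed per gene. RefSeq promoters are of GRCm38.p6.

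The Hox genes and all lists were chosen with earlier results of these data known. Named are the Hox genes, the nearest protein-coding genes and noncoding genes in the clusters at 1 TPM or more. Also named are Hotair, Hottip, Hotairm1 and Halr1, the TALE and regulator lists, and the 3 highest of other lists. Further names were chosen after their values were seen. Values and sequences of some single genes are not reported here.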

Additional observations from a re-analysis of the deposited data

Results flagged for a closer look

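Some Hox genes that the alignment-based table lists at 0 expected counts had estimated counts in the read-based table above the limit of 3 that a count of 0 allows. Hoxb1 had 9 estimated counts in replicate 1 and 13 in replicate 2, or 0.19 and 0.31 read-based TPM. Hoxd11 had 3.11 and 3.15 estimated counts, and 8.68% of its 100-base runs are also in Gm28309. Hoxa13 had 4 in replicate 1, and 0.15 and 0.09 read-based TPM. Hoxb1 and Hoxa13 are therefore silent by the alignment-based table and low by the read-based one. So are Hoxa10, at 0.05 and 0.18 read-based TPM, and Hoxc10, at 0.07 and 0.11 read-based TPM, which had expected counts.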

How the results depend on the processing

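With 1 group of 2 libraries no difference could be tested, and genes near the thresholds depended on the scale. The number of expressed Hox genes was 21 at 0.5 TPM, 16 at 2 TPM, 23 at 10 counts, and 22 with TPM rescaled to protein-coding genes or with read-based TPM. The highest expressed group became 9 in Hoxa under 10 counts, rescaled TPM and read-based TPM, 9 in Hoxc under 10 counts, and 8 in Hoxd at 2 TPM; it was 9 in Hoxb under all 5 of these settings. With protein-coding transcripts alone, chosen after seeing the data, 19 genes were expressed and the lowest expressed group in Hoxa was 4. Summed Hox TPM was 401 read-based and 559 rescaled, and 193 to 204 when either library was left out. Read-based shares were 19.9% for Hoxc and 9.74% for Hoxd. Genes with an interval above 0 numbered 3 by total counts, 4 by TPM, 10 read-based and 8 with DESeq2 size factors, and those below 0 numbered 3, 5, 2 and 1 in the same order. The median share of the leading transcript was 65.3% read-based and 72.3 to 82.5% when either library was left out. The cause of the shifts between tables was not tested. No paired analysis was possible because the series holds 1 group.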

Other observations

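Of 138 genes named or listed here, 122 had a higher TPM in the read-based table than in the alignment-based one, 12 were equal and 4 were lower. Of those 4, Hotairm1 stood at 5.99 and 6.48 alignment-based TPM against 2.52 and 3.31 read-based TPM. Gm27477 had 3.51 and 2.51 alignment-based TPM and 0 read-based counts. Hoxc10 and Evx1, the others, were under 0.1 TPM in both tables on average.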
